A study of Mus musculus with 8 samples.

Results

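Translation initiation and elongation factors are the proteins that load ribosomes onto mRNA and move them along it. They were described here as 47 mouse genes, out of 14860 genes with a transcript cluster of their own, in the tibialis anterior, a fast muscle of the lower leg. A gene was a member when a transcript cluster, the unit that an exon array summarises, carried a single gene symbol that began with Eif and a digit, or with Eef1 or Eef2. Eif4ebp1 was left out. The rule goes by symbol, so the 47 genes also include those of kinases and methyltransferases that act on the factors, and of a tRNA synthetase scaffold. Each of the 47 genes had a single such cluster. A further 7 clusters carried a symbol of this kind together with another symbol and were not used, and well-known factors such as Eef1a1 and Eif4g1 were not analysed here.

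The fasted mice had been without food for 24 h and the fed mice had free access to it. Both were males aged 8 weeks, and no genotype or strain was given for either group. Each array was hybridised with RNA pooled from 3 mice, and the experiment was done 4 times with 1 fasted and 1 fed pool each time. This gave 4 fasted and 4 fed arrays, on which the number of arrays limits the precision. The values are log2 expression levels, so a difference of 1 is a 2-fold change.

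The muscle identity of the samples was checked with marker genes. The 8 measured markers of skeletal muscle fibres had mean levels between 10.80 and 12.39 on arrays whose medians lay between 5.76 and 5.91. None of the 46 measured markers in 10 lists of cell type genes passed limma's test described below, and 7 had an unadjusted p under 0.05, beside 10.9% of all clusters. Of these, 3 were among the 5 fibroblast markers, 2 among the 5 endothelial markers, 1 was an adipocyte marker and 1 a macrophage marker. The fibroblast list had the largest median difference, -0.30, with summed levels of 38.0 to 39.7 in the fasted pools, against 38.6 to 41.0 in the fed pools. Its part in the members' values was not tested. In whole muscle, fewer cells of a type and less RNA per cell cannot be told apart. The arrays also differed in how widely their values spread. The standard deviation over all clusters was 1.41, 1.34, 1.25 and 1.44 on the fasted arrays of experiments 1 to 4, against 1.29, 1.33, 1.37 and 1.46 on the fed arrays. The fasted array of experiment 3 and the fed array of experiment 1 were the narrowest of their groups.

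As background, initiation starts when eIF2 brings the initiator tRNA to the small ribosomal subunit, and eIF4E, bound to the cap of the mRNA, recruits the subunit through a scaffold protein of the eIF4G family. eIF3 holds this assembly together, and eIF5 and eIF5B act when the start codon has been found. Elongation then runs on eEF1A, which delivers aminoacyl-tRNA, and on eEF2, which moves the ribosome. In muscle, food deprivation is known to slow protein synthesis largely through phosphorylation of such proteins, which an mRNA array does not measure.

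In limma's paired test, 0 of the 47 members had an adjusted p under 0.05, beside 0.818% of all 16755 clusters. The lowest adjusted p was 0.177, for Eif4e. At an unadjusted p under 0.05 there were 7 members, or 14.9%, beside 10.9% of all clusters. Of these 7, 3 were higher in fasted muscle, beside 5.15% of all clusters, and 4 were lower, beside 5.79%. The 3 were Eif2ak4, Eif4g3 and Eif5, and the 4 were Eef1akmt1, Eef1e1, Eef2k and Eif4e. Among them, Eif2ak4 and Eef2k encode kinases, Eef1akmt1 a methyltransferase and Eef1e1 a synthetase scaffold, not factors themselves. The members' median difference, fasted minus fed, was 0.01, beside -0.02 over all clusters, with 25 of the 47 members above 0, beside 45.6% of all clusters.

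A p that misses the threshold does not show that a level stayed the same, and the intervals give a 95% range for each member taken by itself. They are not adjusted for the number of members. The 95% confidence interval of the difference lay inside 0.5 in either direction on the log2 scale, or 1.41-fold, for 32 of the 47 members. It lay inside 2-fold for 46, and the exception was Eif4e. A difference of at least 0.5 in size was seen in 1 member, or 2.13%, beside 3.34% of all clusters. Standard errors of the members ran from 0.10 to 0.22, with a median of 0.12, beside a median of 0.12 over all clusters. The share of all clusters with intervals inside these bounds was not counted, so the narrow intervals cannot be called a trait of the members.

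**Figure D1:**
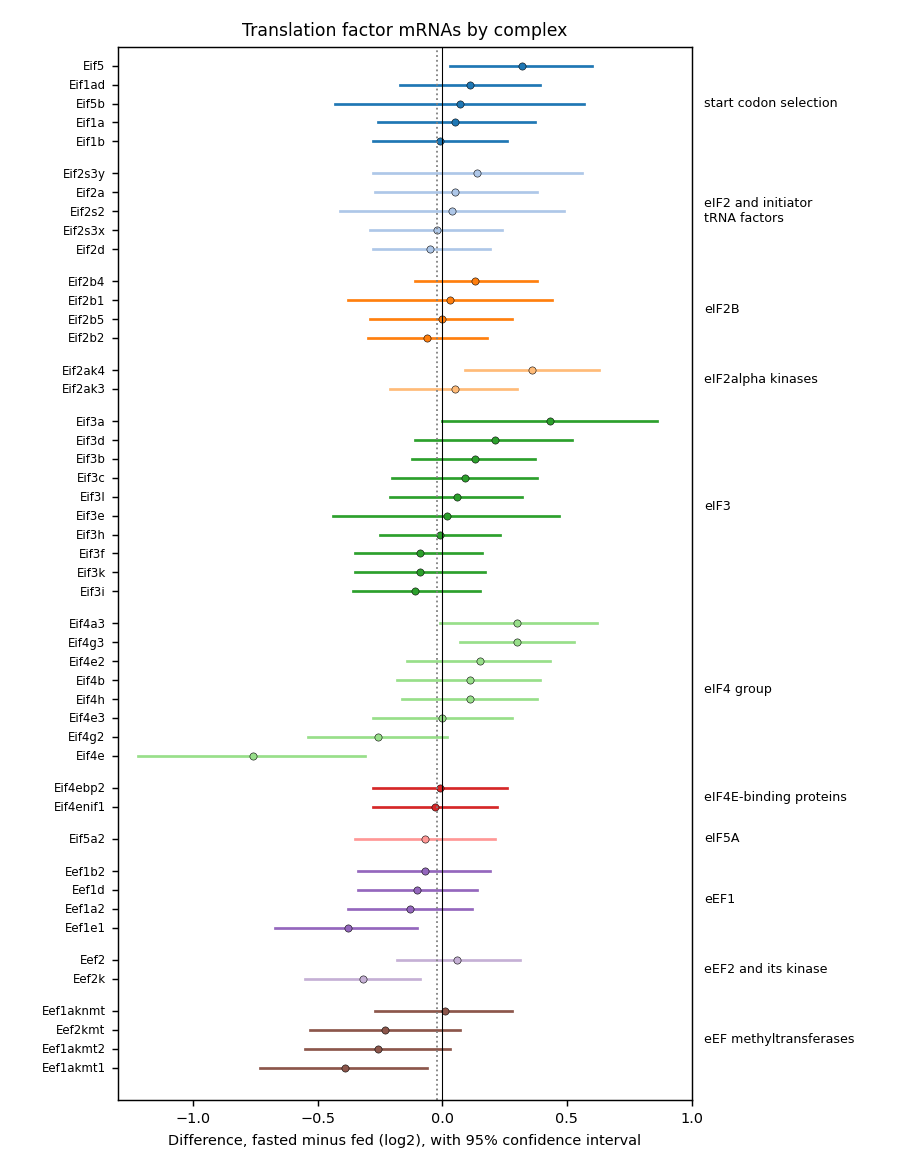
Difference between fasted and fed muscle (log2, fasted minus fed) for each of the 47 members, grouped by complex, with the 95% confidence interval from limma's paired fit over 4 experiments. The dotted line is the median of all transcript clusters, -0.02. Eif4e, at -0.76, lies apart from the other members, and the intervals of 7 members do not include 0.

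The member furthest from 0 was Eif4e, which encodes the cap-binding protein of the eIF4 group (transcript cluster 6901757). Its levels were 8.87, 8.94, 8.09 and 8.66 in the fasted pools of experiments 1 to 4, against 9.22, 9.43, 9.66 and 9.30 in the fed pools. Every fasted pool lay below every fed pool. The mean was 8.64 ± 0.38 in fasted and 9.40 ± 0.19 in fed muscle (SD, n = 4 each), so the fasted level was 59.0% of the fed one. The difference was -0.76 ± 0.20 (SE), with a 95% confidence interval from -1.22 to -0.31 (limma's paired test, adjusted p = 0.177). Over 13 alternative settings the adjusted p ran from 0.0697 to 0.359. The fasted pool of experiment 3 was the lowest, and its difference was -1.57, against -0.34, -0.49 and -0.64 in experiments 1, 2 and 4. Without experiment 3 the difference was -0.49, with an adjusted p of 0.143.

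Groups that did not overlap were seen for 3 members. Lower in fasted muscle were Eif4e and Eef1akmt2, 4.26% of the members beside 3.22% of all clusters. Higher in fasted muscle was Eif2ak4, 2.13% of the members beside 3.55% of all clusters. The same direction in all 4 experiments was found for 7 members lower in fasted muscle, 14.9% beside 10.1% of all clusters, and for 4 members higher, 8.51% beside 8.61%. These shares lay near those of all clusters.

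Eif4e was picked as the member furthest from 0, so its paralogs and partners among the members had to lie nearer to 0. Eif4e2 and Eif4e3, which encode related cap-binding proteins, differed by 0.15 ± 0.12 (SE) and 0.00 ± 0.12. Eif4enif1, whose product carries eIF4E into the nucleus, differed by -0.03 ± 0.11. Its levels were 7.49, 7.45, 7.16 and 7.49 in the fasted pools, against 7.39, 7.46, 7.39 and 7.49 in the fed pools. The repressor gene Eif4ebp2, whose protein blocks eIF4E until mTORC1 phosphorylates it, stood at 7.32, 7.27, 7.31 and 7.82 in the fasted pools, against 7.07, 7.25, 7.34 and 8.09 in the fed pools. Its pools of experiment 4 were the highest of both groups, and the difference was -0.01 with a 95% confidence interval from -0.28 to 0.26.

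The 2 measured scaffold genes of the eIF4G family stood on opposite sides of 0. Eif4g3, which encodes a scaffold that binds eIF4E, was at 8.30, 8.21, 8.27 and 8.65 in the fasted pools, against 7.98, 7.96, 8.00 and 8.30 in the fed pools. Each fasted pool lay above the fed pool of its experiment, by 0.25 to 0.36, although the groups overlapped. The difference was 0.30 ± 0.10 (SE, 95% confidence interval 0.07 to 0.53, adjusted p = 0.297 in limma's paired test). Eif4g2, which encodes a scaffold that lacks the site for eIF4E, was at 9.44, 9.45, 9.10 and 9.58 in the fasted pools, against 9.46, 9.60, 9.64 and 9.91 in the fed pools. Each of its fasted pools lay below its fed pool, with a difference of -0.26 ± 0.12 (adjusted p = 0.5). Without experiment 3 it was -0.17. Both genes were singled out after their values were seen.

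The remaining members of the eIF4 group were a helicase gene and genes of helicase cofactors. Eif4a3, whose product sits in the exon junction complex, differed by 0.30 ± 0.14 (SE), and the cofactor genes Eif4h and Eif4b by 0.11 ± 0.12 each. The levels of Eif4b, at 4.17 in fasted and 4.07 in fed muscle, were below the array medians and may be background. Of the 8 genes of the eIF4 group, 6 lay above 0, beside 45.6% of all clusters, with a median of 0.11.

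Promoter sequence is shown for Eif4e and Eef2k, the members with the lowest p, so that the regions can be read beside the values. The windows are the 250 bases before a RefSeq transcript start on GRCm38.p6, given 5′ to 3′ on the strand of the gene. Capitals mark matches to 4 motifs searched on both strands: the E-box CACGTG, the FoxO element GTAAACA, the amino acid response element TGATGNAA and the cAMP response element TGACGTCA. Each run of capitals is a single match, and the matches do not overlap. The Eif4e window is chr3:138527018-138527267, plus strand, and the Eef2k windows are chr7:120842581-120842830 and chr7:120850939-120851188, both plus strand.
Eif4e: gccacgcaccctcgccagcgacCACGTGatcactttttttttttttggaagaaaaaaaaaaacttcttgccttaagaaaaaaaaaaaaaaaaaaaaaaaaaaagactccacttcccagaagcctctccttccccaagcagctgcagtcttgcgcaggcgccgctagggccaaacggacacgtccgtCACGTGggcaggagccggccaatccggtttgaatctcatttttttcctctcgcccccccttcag
Eef2k, start 1: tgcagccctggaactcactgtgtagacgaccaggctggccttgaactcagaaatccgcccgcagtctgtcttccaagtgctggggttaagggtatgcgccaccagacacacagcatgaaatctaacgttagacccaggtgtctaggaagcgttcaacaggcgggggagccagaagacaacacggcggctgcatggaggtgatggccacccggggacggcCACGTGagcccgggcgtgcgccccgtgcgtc
Eef2k, start 3: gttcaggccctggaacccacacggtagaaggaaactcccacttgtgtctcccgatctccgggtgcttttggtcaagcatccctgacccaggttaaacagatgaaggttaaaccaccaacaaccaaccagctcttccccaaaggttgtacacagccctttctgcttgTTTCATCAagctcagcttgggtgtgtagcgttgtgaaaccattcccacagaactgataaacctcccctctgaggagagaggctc

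The Eif4e window held the E-box at 2 places, whose first bases lay 228 and 64 bases before the start. The window at start 1 of Eef2k held it once, 31 bases before the start, and the window at start 3 held the amino acid response element once, 84 bases before the start. The other window of Eif4e and the other window of Eef2k held no match and are not printed. A window of Eif3a, the member with the highest difference, also held no match and is not printed. Of the 39 members with a window, 9 held an E-box in any of their windows, or 23.1%, against 8.63% of 11894 genes. The FoxO element was found in 1 member, Eif2s3y, or 2.56% against 3.16%, and the amino acid response element in 2, Eif2s3x and Eef2k, or 5.13% against 3.09%. The cAMP response element was found in 0 of the 39, against 2.32% of all genes. The shares are not adjusted for the number of windows per gene or for their base content. These are matches of letters in a window and say nothing of binding.

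Among the factors of start codon selection, 4 of 5 members lay above 0, beside 45.6% of all clusters, with a median of 0.07. The one furthest from 0 was Eif5, which encodes the protein that makes eIF2 hydrolyse its GTP. Eif5 was at 8.97, 8.72, 8.47 and 8.65 in the fasted pools, against 8.39, 8.26, 8.40 and 8.49 in the fed pools. Only the fasted pool of experiment 3 lay within the range of the fed pools. The difference was 0.32 ± 0.12 (SE, 95% confidence interval 0.03 to 0.60, adjusted p = 0.390 in limma's paired test). Eif5b, whose product joins the ribosomal subunits, differed by 0.07 ± 0.22, the largest standard error of the members, with 0.87 in experiment 1 and -0.58 in experiment 3. Eif1a and Eif1b, genes of the scanning factors, and Eif1ad, whose product has an eIF1A-like domain, differed by 0.05, -0.01 and 0.11.

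eIF2, the carrier of the initiator tRNA, was represented by 3 subunit genes. Eif2s3y, the Y-linked gene of the gamma subunit, was at 7.83, 7.67, 7.12 and 7.57 in the fasted pools, against 7.32, 7.31, 7.71 and 7.28 in the fed pools. Its fasted level was the higher one in 3 experiments and the lower one in experiment 3, and the difference was 0.14 ± 0.18 (SE, adjusted p = 0.906). It was 0.02 without experiment 1 and 0.38 without experiment 3. The X-linked Eif2s3x, which encodes the same subunit, differed by -0.02 ± 0.12. Eif2s2, which encodes the beta subunit, differed by 0.04 ± 0.19, with 0.77 in experiment 1 and -0.51 in experiment 3. Eif2a and Eif2d, whose products can bring tRNA to the ribosome without eIF2, differed by 0.05 ± 0.14 and -0.05 ± 0.10.

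eIF2B recharges eIF2 with GTP and is the step blocked when eIF2 is phosphorylated. Eif2b5, which encodes its catalytic subunit, was at 6.48, 6.41, 6.20 and 6.49 in the fasted pools, against 6.21, 6.30, 6.36 and 6.72 in the fed pools. The groups overlapped, and the 95% confidence interval of the difference ran from -0.29 to 0.28. Eif2b4, the member of this complex with the lowest p, was at 6.42, 6.28, 6.22 and 6.52 in the fasted pools, against 6.17, 6.22, 5.98 and 6.54 in the fed pools. Its difference was 0.13 ± 0.11 (SE, adjusted p = 0.776 in limma's paired test). Eif2b1 and Eif2b2 differed by 0.03 ± 0.18 and -0.06 ± 0.10.

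Of the kinases that phosphorylate eIF2, Eif2ak4, which encodes the amino acid sensor GCN2, was at 5.83, 5.54, 5.65 and 5.48 in the fasted pools, against 5.17, 5.23, 5.42 and 5.25 in the fed pools. Every fasted pool lay above every fed pool. The mean was 5.63 ± 0.15 in fasted and 5.27 ± 0.11 in fed muscle (SD, n = 4 each), a 1.28-fold difference with both means below the array medians (log2 0.36 ± 0.12 SE, 95% confidence interval 0.09 to 0.63, adjusted p = 0.280 in limma's paired test). Eif2ak3, which encodes PERK, the kinase of endoplasmic reticulum stress, was at 5.37, 5.54, 5.47 and 5.59 in the fasted pools, against 5.52, 5.31, 5.49 and 5.47 in the fed pools. These groups overlapped, with a difference of 0.05 ± 0.11 and an adjusted p of 0.959. The means of Eif2ak3, 5.49 in fasted and 5.45 in fed muscle, were also below the array medians.

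eIF3 had 10 measured subunit genes, 6 of them above 0, beside 45.6% of all clusters, with a median of 0.04. The highest difference of all members was that of Eif3a, which encodes the largest subunit, a scaffold of the complex. Eif3a was at 9.58, 9.30, 8.74 and 9.25 in the fasted pools, against 8.51, 8.71, 8.88 and 9.04 in the fed pools. The fasted pool was above the fed one in experiments 1, 2 and 4, by 1.07, 0.59 and 0.20, and below it in experiment 3, by -0.13. The difference was 0.43 ± 0.19 (SE, adjusted p = 0.465). It was 0.22 without experiment 1 and 0.62 without experiment 3.

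Eif3a was picked as the highest of all members, so the other eIF3 subunits had to lie below it. Eif3d, whose product can bind the cap of some mRNAs, differed by 0.21 ± 0.14 (SE). Eif3b and Eif3c, which encode further core subunits, differed by 0.13 ± 0.11 and 0.09 ± 0.13, and Eif3l and Eif3e by 0.06 ± 0.11 and 0.02 ± 0.20. Below 0 were Eif3h (-0.01 ± 0.10), Eif3k (-0.09 ± 0.11), Eif3i (-0.11 ± 0.11) and Eif3f (-0.09 ± 0.11). Eif3f encodes a subunit that the ubiquitin ligase atrogin-1 is known to mark for degradation in mouse muscle cells, and its mRNA had a 95% confidence interval from -0.35 to 0.16.

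**Figure D2:**
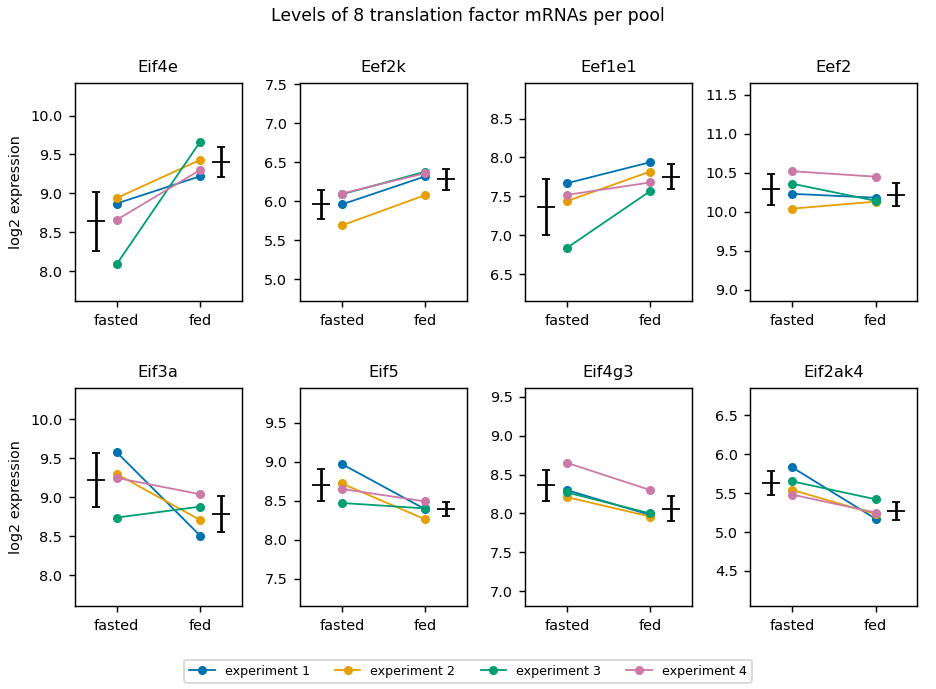
Log2 expression of 8 members in the 4 fasted (left) and 4 fed (right) pools, with lines joining the pools of an experiment and black bars for the mean and SD of each group (n = 4). Eif4e separates the groups downwards and Eif2ak4 upwards, and Eef2 overlaps. Vertical axes have different levels and the same length.

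Among the elongation factor genes, 0 of 4 in the eEF1 group lay above 0, beside 45.6% of all clusters, with a median of -0.12. The group includes Eef1e1, a synthetase scaffold gene described below. Eef1a2, which encodes the form of eEF1A that adult mouse muscle uses, was at 9.02, 8.98, 9.19 and 9.30 in the fasted pools, against 9.20, 9.24, 9.13 and 9.45 in the fed pools. The groups overlapped, and the difference was -0.13 ± 0.11 (SE, 95% confidence interval -0.38 to 0.12, adjusted p = 0.782 in limma's paired test). Without experiment 3 it was -0.20. Eef1b2 and Eef1d, which encode exchange factors of eEF1A, differed by -0.07 ± 0.11 and -0.10 ± 0.10.

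Eef1e1, named with this group, encodes a scaffold protein of the multi-tRNA synthetase complex, also called AIMP3. It was at 7.67, 7.44, 6.84 and 7.52 in the fasted pools, against 7.94, 7.82, 7.57 and 7.68 in the fed pools. Each fasted pool lay below the fed pool of its experiment, most in experiment 3, by -0.73. The difference was -0.38 ± 0.12 (SE, 95% confidence interval -0.67 to -0.10, adjusted p = 0.280 in limma's paired test). With both narrow arrays left out, which ends the pairing, it was -0.15 (adjusted p = 0.743). Of the other scaffold genes of that complex, which are not members, Aimp2 was at -0.64 ± 0.11 (adjusted p = 0.0547) and Aimp1 at -0.19 ± 0.14 (adjusted p = 0.757). Aimp2 was lower in every fasted pool, at 8.79, 8.72, 8.62 and 9.16, against 9.36, 9.50, 9.38 and 9.59 in the fed pools. Its adjusted p passed in 5 of 13 alternative settings.

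Eef2, which encodes the translocase, was at 10.23, 10.04, 10.36 and 10.52 in the fasted pools, against 10.18, 10.13, 10.14 and 10.45 in the fed pools. The groups overlapped, with a difference of 0.06 ± 0.11 (SE) and a 95% confidence interval from -0.18 to 0.31. Eef2k encodes the kinase that inhibits eEF2. It was at 5.96, 5.69, 6.09 and 6.10 in the fasted pools, against 6.32, 6.08, 6.38 and 6.36 in the fed pools. Each fasted pool lay below its fed pool by a like amount, -0.26 to -0.39, while the groups overlapped through the low fed pool of experiment 2. The difference was -0.32 ± 0.10 (95% confidence interval -0.55 to -0.09, adjusted p = 0.266 in limma's paired test), or 80.0% of the fed level.

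Of 4 genes of enzymes that methylate the elongation factors, 1 lay above 0, beside 45.6% of all clusters, with a median of -0.24. Eef1akmt1, a lysine methyltransferase gene for eEF1A, was at 7.08, 7.24, 6.77 and 7.17 in the fasted pools, against 7.23, 7.30, 7.56 and 7.74 in the fed pools. The difference was -0.39 ± 0.15 (SE, adjusted p = 0.359 in limma's paired test), and it was larger in experiments 3 and 4 than in 1 and 2. Eef1akmt2, another such gene, was at 5.43, 5.38, 5.32 and 5.36 in the fasted pools, against 5.44, 5.54, 5.59 and 5.96 in the fed pools. The groups were apart by 0.01 only, and the difference was -0.26 ± 0.13 (adjusted p = 0.523), or -0.15 without experiment 4. Its means, 5.37 in fasted and 5.63 in fed muscle, were below the array medians. Eef1akmt2 was singled out after its values were seen. Eef2kmt, which acts on eEF2, differed by -0.23 ± 0.13, and Eef1aknmt, which also acts on eEF1A, by 0.01 ± 0.12. Eif5a2, a paralog of the elongation factor eIF5A, was at 5.14, 5.43, 5.26 and 5.20 in the fasted pools, against 5.43, 5.22, 5.27 and 5.41 in the fed pools. Its difference was -0.07 ± 0.12, with both means below the array medians.

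The members' differences varied between the experiments. The fasted pool was the higher one for 30 of 47 members in experiment 1, 21 in experiment 2, 16 in experiment 3 and 17 in experiment 4. Over all clusters the shares were 38.6%, 44.2%, 59.2% and 50.0%, so the members stood on the other side from the bulk of clusters in experiments 1 and 3. Of the 10 eIF3 genes, 10 were above 0 in experiment 1 and 2 in experiment 3, with medians of 0.33 and -0.09. Of the 5 genes of the eIF2 group, 4 were above 0 in experiment 1 and 0 in experiment 3, with medians of 0.47 and -0.30. The eIF2B genes had medians of 0.26 and -0.09.

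The fasted pool of experiment 3 was the lowest of the fasted pools for 28 of 47 members, or 59.6%, beside 25.8% of all clusters. The fed pool of experiment 1 was the lowest of the fed pools for 22, or 46.8%, beside 23.5%. These were the narrowest arrays of their groups. The members' median level was 7.42, and 88.7% of all clusters lay below it. Among the 1895 clusters at or above that level, 67.8% were higher in the fasted pool of experiment 1 and 25.6% in that of experiment 3. What the spread of the arrays and the level of the members contribute to the counts per experiment was not tested.

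Quantile normalization, which gives all arrays the same spread, moved these counts. Members higher in the fasted pool then numbered 28, 22, 26 and 23 in experiments 1 to 4, and their medians were 0.06, -0.03, 0.04 and 0.00, against 0.14, -0.02, -0.09 and -0.02 as deposited. The fasted pool of experiment 3 was then the lowest of its group for 20 members, and the fed pool of experiment 1 for 13, fewer than the 15 of the fed pool of experiment 3. The eIF3 genes above 0 numbered 6 in experiment 1 and 9 in experiment 3, while their medians were 0.14 and 0.12. The eIF2 group stayed apart between these experiments, with medians of 0.27 and -0.14 and 5 and 1 of its 5 genes above 0. So did eIF2B, with medians of 0.30 and -0.14 and 4 and 1 of its 4 genes above 0. With the fed pool of experiment 1 and the fasted pool of experiment 3 left out, a setting chosen after seeing the data and fitted without pairing, 0 of 47 members passed and Eif4e was at -0.64, with an adjusted p of 0.0903.

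**Figure D3:**
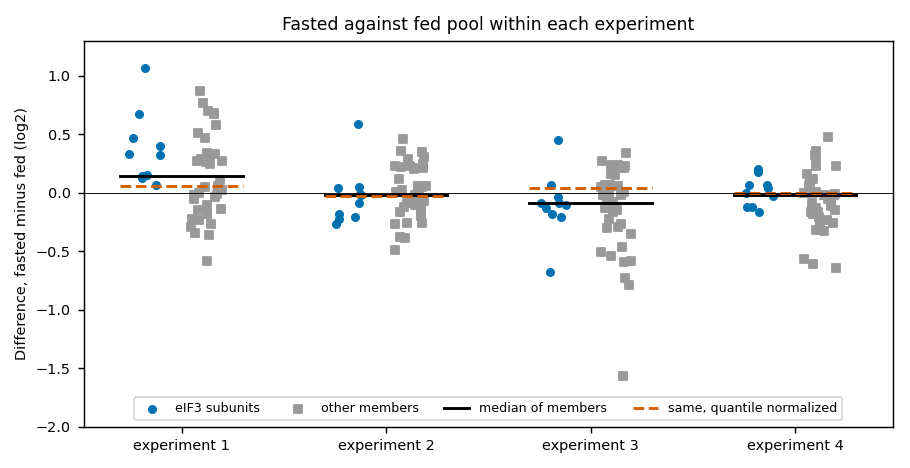
Difference between the fasted and the fed pool (log2) within each of the 4 experiments for 10 eIF3 subunit genes (circles) and the other 37 members (squares). Black lines are the members' medians, 0.14, -0.02, -0.09 and -0.02, and dashed lines the same after quantile normalization, 0.06, -0.03, 0.04 and 0.00.

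The signalling proteins that act on the factors were read from a list of 19 genes, of which 14 were measured. In limma's paired test 3 of the 14 rose and 0 fell, beside 0.531% of all clusters that were higher and 0.286% that were lower. The list was drawn up with earlier results of these data known, so these shares only describe it. Ppp1r15a, which encodes the phosphatase partner that removes phosphate from eIF2, rose, at 6.99, 6.85, 6.87 and 7.31 in the fasted pools, against 5.79, 5.89, 5.18 and 6.19 in the fed pools. Every fasted pool lay above every fed pool, with a difference of 1.24 ± 0.14 (SE, adjusted p = 0.0134). Its call ended without experiment 1 (adjusted p = 0.0737) and with the narrow arrays left out (adjusted p = 0.0562).

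Impact, whose product restrains GCN2, rose, at 8.29, 8.08, 7.91 and 7.62 in the fasted pools, against 7.66, 7.0, 7.11 and 6.98 in the fed pools. Each fasted pool lay above its fed pool, and the groups overlapped only through the fed pool of experiment 1, with a difference of 0.79 ± 0.12 (SE, adjusted p = 0.0337 in limma's paired test). Its call ended without experiment 1, 2, 3 or 4 (0.101, 0.162, 0.0684 and 0.112 were the adjusted p-values), when arrays were centred on their medians (0.0591), after quantile normalization (0.0519), with a random block (0.0520) and without the experiment block (0.0717).

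Mknk2, which encodes a kinase that phosphorylates eIF4E, rose, at 8.59, 8.38, 8.43 and 8.51 in the fasted pools, against 7.66, 7.80, 7.65 and 7.92 in the fed pools. The groups did not overlap, and the difference was 0.72 ± 0.11 (SE, adjusted p = 0.0368 in limma's paired test). Its call ended without experiment 1, 2, 3 or 4 (0.139, 0.139, 0.0763 and 0.135 were the adjusted p-values) and when arrays were centred on their medians (0.0745). Its paralog Mknk1 was at -0.29 ± 0.10 (adjusted p = 0.338).

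The other regulators did not pass. Atf4, the transcription factor whose mRNA is translated when eIF2 is phosphorylated, was at 8.29, 8.28, 8.20 and 8.62 in the fasted pools, against 7.66, 7.83, 7.99 and 8.33 in the fed pools. Each fasted pool lay above its fed pool while the groups overlapped, with a difference of 0.40 ± 0.11 (SE, adjusted p = 0.218). Mtor, the kinase upstream of the eIF4E repressors, was at 0.19 ± 0.10 (adjusted p = 0.589). Over the 14 measured regulators the differences ran from -0.36 to 1.24, with a median of 0.04 and 8 above 0, beside 45.6% of all clusters.

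**Figure D4:**
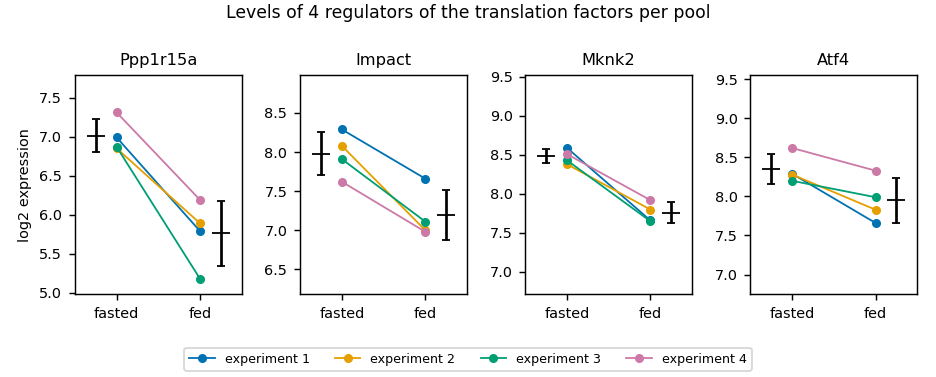
Log2 expression of 4 regulators in the 4 fasted (left) and 4 fed (right) pools, with lines joining the pools of an experiment and black bars for the mean and SD (n = 4). Ppp1r15a and Mknk2 separate the groups, Impact and Atf4 are higher in the fasted pool of each experiment with overlap between the groups.

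None of the measured genes in the 6 other lists of the translation machinery passed limma's paired test, beside 0.818% of all clusters. Of 19 measured cytosolic ribosomal protein genes, 3 had an unadjusted p under 0.05, beside 10.9% of all clusters, and 5 were above 0, beside 45.6%, with a median of -0.14. These 19 are only those with a cluster of their own and do not stand for every ribosomal protein gene. The lowest p among the 19 was that of Rpl35a, at -0.35 ± 0.10 (SE, adjusted p = 0.209 in limma's paired test). Its means, 5.77 in fasted and 6.13 in fed muscle, lay near the array medians. The next lowest p was that of Rpl31, at -0.58 ± 0.20 (adjusted p = 0.317). Rpl31 was at 4.05 in fasted and 4.63 in fed muscle, below the array medians, and its difference was -1.4 in experiment 3. Rpl37, Rps15 and Rpl39l also lay below the array medians, and such levels may be background. Of 17 aminoacyl-tRNA synthetase and scaffold genes, 0 passed and 1, Aimp2, had an unadjusted p under 0.05, with a median of -0.01 and Iars, the isoleucine enzyme gene, at 0.28 ± 0.16 (adjusted p = 0.600). Of 7 termination and recycling genes, 0 passed by limma and 0 had an unadjusted p under 0.05, with a median of -0.02, Hbs1l at -0.19 ± 0.14 and Mcts1 at -0.11 ± 0.17.

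The smaller lists also held 0 calls by limma, with 1, 0 and 1 genes at an unadjusted p under 0.05 in the order given here. Medians were 0.00 for 5 poly(A)-binding proteins and partners, -0.05 for 9 mitochondrial translation factors, and -0.03 for 7 enzymes that modify eIF5A and eEF2. Paip2b, which encodes an inhibitor of the poly(A)-binding protein, was at 0.35 ± 0.11 (SE, adjusted p = 0.260 in limma's paired test). The mitochondrial initiation factor gene Mtif2 was at -0.45 ± 0.21 (adjusted p = 0.516). Dph3 and Dph5, genes of diphthamide synthesis on eEF2, were at -0.34 ± 0.13 and 0.28 ± 0.13 (adjusted p of 0.390 and 0.518).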

How the data were processed

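The authors deposited log2 expression values of 8 exon arrays, 1 per transcript cluster, made with RMA per the submitters' processing notes. RMA corrects the background, normalizes between arrays and summarises probes. The version is not given in the sources used here. Per the labels' protocols, RNA was amplified with SPIA chemistry and biotin-labelled. The range of the values, 1.08 to 13.3, gave the log base. Gene symbols came from the platform annotation, and levels of different genes were compared only to place clusters within the range of an array, which probe affinity also affects.

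The fit ran over all 16755 clusters in limma 3.58.1 under R 4.3.3 (lmFit, then eBayes without trend, experiment as a fixed block, 3 residual and 4.84 prior degrees of freedom), with Benjamini-Hochberg adjustment across every cluster and a threshold of 0.05. No filter on low values was used. Confidence intervals are at 95%. The fit was tested on simulated data. The pairing comes from the series description, in which each experiment holds both pools. Deviations of paired arrays from their group means correlated at -0.18, 0.05, -0.14 and 0.43. P-values of the paired fit rest on how the fasted-minus-fed differences of pools vary between experiments, moderated over all clusters. They do not describe the spread between mice.

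Members with values in every array were chosen by a rule: those past the threshold, the 3 highest and 3 lowest differences, the lowest p of each complex, and a fixed set. The rule gave 16 members, and Eif4g2, Eif4g3 and Eef1akmt2 were added after their values were seen. The members and lists were chosen with earlier results of these data known. Promoter windows came from RefSeq on GRCm38.p6, with 39 of 47 members matched.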

Additional observations from a re-analysis of the deposited data

Results flagged for a closer look

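Within each group of 4 pools, the lowest and highest values of the 47 members were examined for a pool far from the others, by the gap to its nearest neighbour over the whole range of the group (Dixon's ratio, against its 95% critical value). Of 94 groups, 8 had such a pool, and chance gives about 1 in 20 for independent groups of normally spread values. The groups here share arrays, and the share over all clusters was not counted, so the number only describes the members. The fasted pool of experiment 3 was the low one for Eif1b (ratio 0.922, 8.23 against 8.46 to 8.48), Eif4enif1 (0.868, 7.16 against 7.45 to 7.49) and Eef1b2 (0.869, 9.20 against 9.53 to 9.58). The fasted pool of experiment 2 was the low one for Eif3d (0.909, 7.38 against 7.91 to 7.96). The fasted pool of experiment 4 was the high one for Eif4ebp2 (0.908, 7.82 against 7.27 to 7.32). Among fed pools, that of experiment 4 was the high one for Eif4g3 (0.886, 8.30 against 7.96 to 8.00) and Eef2 (0.851, 10.45 against 10.13 to 10.18), and that of experiment 3 for Eif2s3y (0.925, 7.71 against 7.28 to 7.32).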

How the results depend on the processing

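The count of members past the threshold was 0 in each of 13 alternative settings, with the lowest adjusted p at 0.0697, for Eif4e with experiment as a random block. The members' median difference lay between -0.06 and 0.03 when an experiment was left out. Without the experiment block, 0 members and 185 clusters passed, against 0 and 137 with it. With 0 members called either way, there was no call of a member that could depend on the pairing. Over all clusters the count was 229 with a random block, 45 after median centring, 240 when the 25% of clusters with the lowest mean were left out, 265 when arrays were weighted and 216 under a trended, robust prior, and it ran from 16 to 94 when an experiment was left out, which leaves fewer arrays. The causes of these shifts were not tested. Of 24 genes followed through the settings, 16 named by the rule and 8 others, 20 kept their direction in all 13. Of the other 4, Eif2b5 was at 0.01 after quantile normalization and after median centring, 0.00 with the narrow arrays left out, and -0.09 to 0.07 without an experiment. Eif4ebp2 was at 0.01 after both normalizations and -0.10 to 0.08 without an experiment. Eif4enif1 was at 0.03 with the narrow arrays left out and -0.08 to 0.03 without an experiment, and Eif2ak3 at -0.01 to 0.11 without an experiment. Low levels, such as those of Eif4b, Eif2ak3, Eif2ak4, Eif5a2, Eef1akmt2 and Eef1aknmt, may be background, and no detection calls were used here.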
